A study of Mus musculus with 10 samples.

Results

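The SLC25 carriers are membrane proteins, most of them in the inner mitochondrial membrane, that exchange metabolites, nucleotides, cofactors and ions between the mitochondrial matrix and the cytosol. They were taken as the protein-coding genes whose symbol is Slc25a followed by a number, without Slc25a13, Slc25a15 and Slc25a20. This gave 40 of the 19414 genes in the table, of which 14821 are protein-coding. Expression was measured by poly-A selected bulk RNA sequencing of livers from 10 females of the HET3 stock, whose animals differ genetically from one another. 5 mice ate a standard diet (SD) and 5 a Longevity diet (LD), which the study's title describes as methionine-supplemented, for 5 months. The labels give the age as 25 months for both diets, without settling whether at the start or the end of feeding, and name no transgene, deletion or drug. Each mouse is named by its diet and number, and values of a diet are given in the order SD_403, SD_500, SD_501, SD_502 and SD_646, then LD_405, LD_406, LD_442, LD_513 and LD_515. Values are CPM, the counts of a gene scaled to a fixed total over the listed genes.

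A carrier of this family binds its substrate from one side of the membrane, changes shape and releases it on the other side, usually in exchange for a second molecule. In hepatocytes these exchanges supply ADP and phosphate for ATP synthesis, move reducing equivalents in the malate-aspartate shuttle, export citrate for lipid synthesis and malate for glucose synthesis, and bring cofactors such as NAD, coenzyme A and S-adenosylmethionine into the matrix. Many substrates are served by pairs of close relatives that differ in the tissues where they are abundant.

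Of the 40 carriers, 37 averaged 1 CPM or more across the mice and were tested together with every other gene that did, 13157 in all, by limma on log2(CPM + 0.1). A gene is said to have risen or fallen on LD when its Benjamini-Hochberg adjusted p over all 13157 genes was under 0.05. By that test 0 carriers rose, against 0.661% of all genes tested, and 0 fell, against 1.23%, or 1.89% in either direction. The adjusted p of the carriers ran from 0.110 to 0.985. A fit by limma with voom weights also called 0 carriers. At an unadjusted limma p under 0.05 there were 9 carriers of 37 (24.3%), against 17.5% of all genes. Of these 9, 6 were higher on LD, where the share over all genes was 5.92%, and 3 were lower, where it was 11.6%. The mice thus gave no carrier that passed the threshold, and the values below are given with their errors.

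The median log2 difference (LD minus SD) was 0.07 over the 37 carriers and -0.11 over all genes tested. It was above 0 for 22 carriers (59.5%) and for 39.6% of all genes. Scaling by the median of ratios moved the median of all genes from -0.11 to -0.01, and 26 carriers were then above 0. Slc25a17, Slc25a45 and Slc25a46, which lay near 0, were among the 4 carriers whose sign changed under that scaling. The 95% confidence interval of a carrier's difference had a median half-width of 0.56 on the log2 scale, and for 23 of the 37 carriers it left out a 2-fold difference in either direction. For the other carriers the interval held a 2-fold difference in at least 1 direction.

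**Figure D1:**
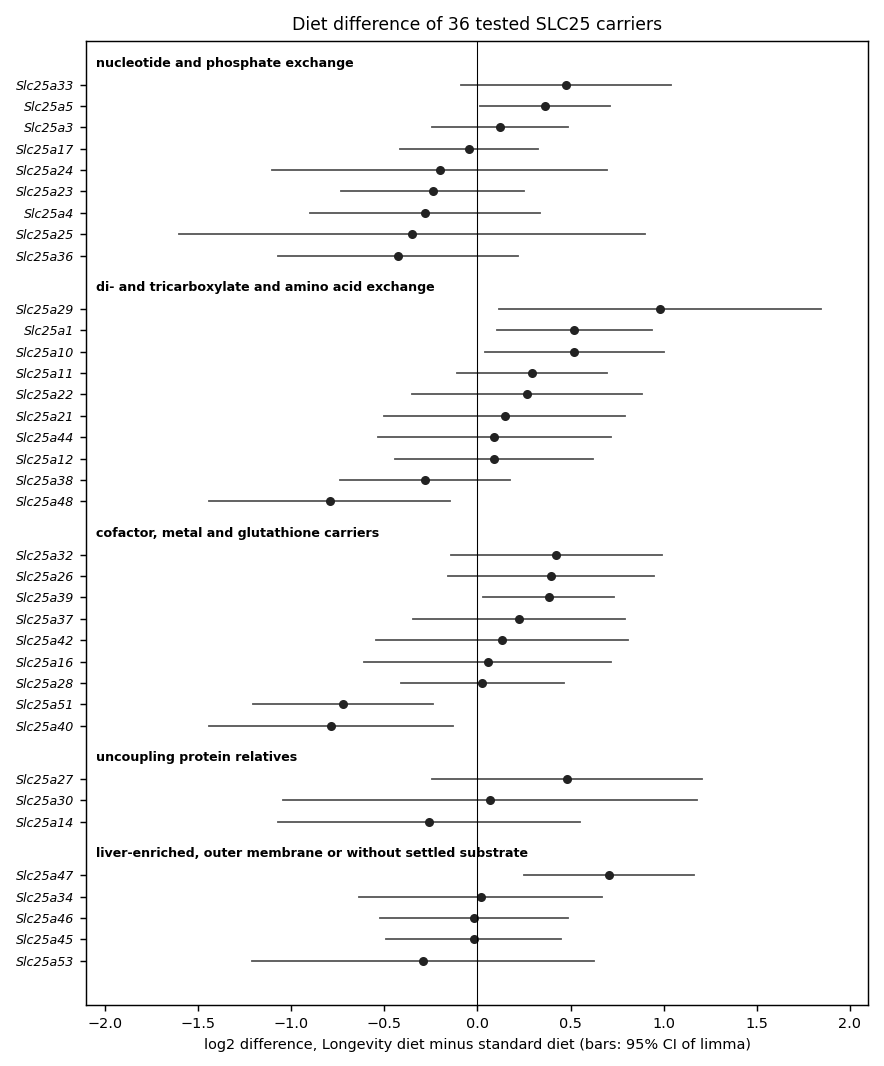
Log2 difference between the diets (LD minus SD, horizontal axis) for 36 of the 37 carriers tested, with its 95% confidence interval from limma. The differences run from -0.79 to 0.98 and 9 intervals leave out 0, before adjustment for the number of genes.

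The libraries differed between the diets in ways that could touch any carrier. The estimated depth was 42.5 ± 4.35 M reads (M, 1e+06) on SD and 30.0 ± 6.47 M on LD (mean ± SD, n = 5 mice each, two-sided exact permutation test p = 0.0159). Reads on genes of the mitochondrial genome made up 9.74% ± 2.61 on SD and 5.45% ± 1.58 on LD (n = 5 each, exact permutation p = 0.0238). The summed CPM of 6 hepatocyte markers was 93019 to 138644 on SD and 138483 to 192800 on LD. Their median log2 difference was 0.12, with 0 called higher and 1, Cps1, called lower (log2 difference -0.98, limma adjusted p = 0.0376), while Alb, the most abundant, was at 0.68 (limma adjusted p = 0.0831). That of 6 endothelial markers was 184 to 251 on SD and 80.4 to 143 on LD, and that of 6 stellate cell markers was 253 to 394 on SD and 146 to 242 on LD. Neutrophil markers summed to 2.50 to 75.9 CPM on SD, highest in SD_403 and SD_646, and to 0.647 to 3.08 on LD, and 1 of the 3 tested, S100a8, was called lower (limma adjusted p = 0.0456). Lymphocyte markers summed to 21.7 to 43.3 CPM on SD and 5.00 to 30.8 on LD, and Kupffer cell markers to 238 to 431 on SD and 124 to 461 on LD. The median log2 difference was -0.95 for endothelial, -0.81 for stellate, -3.13 for neutrophil, -1.36 for lymphocyte and -0.63 for Kupffer cell markers. Of the endothelial, stellate, lymphocyte and Kupffer cell markers, 0 were called in either direction. Erythroid and cholangiocyte markers had medians of 0.02 and 0.08, also with 0 called. The hepatocyte markers identify the tissue as labelled, and the listed adipocyte, brown fat and muscle markers were absent from the table. The part of depth, mitochondrial reads and cell makeup in the carriers' values was not tested. In bulk liver, fewer cells of a type and less RNA per cell cannot be told apart.

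The carriers' levels spanned a wide range. Per kilobase of exon, the carrier with the highest level was Slc25a47, a hepatocyte-enriched carrier without a settled substrate, at a mean over the 10 mice of 341 CPM per kb. After it came the adenine nucleotide carrier Slc25a5 at 174 CPM per kb, the glutathione carrier Slc25a39 at 149.6, the citrate carrier Slc25a1 at 121 and the dicarboxylate carrier Slc25a10 at 68.5. These 5 carriers held 72.2% of the summed level per kb, and the first 10 held 88.7%. Slc25a5 and Slc25a39 lay within each other's spread on LD, at 197 ± 36.8 and 169.7 ± 27.1 CPM per kb. At the low end were Slc25a40 at 0.373 CPM per kb, Slc25a35 at 0.203, Slc25a53 at 0.151, Slc25a18 at 0.042 and Slc25a31 at 0.032, the last 2 listed at 0 in most mice. Exon lengths are the union over annotated transcripts, so a gene with long unused exons has too low a level per kb.

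**Figure D2:**
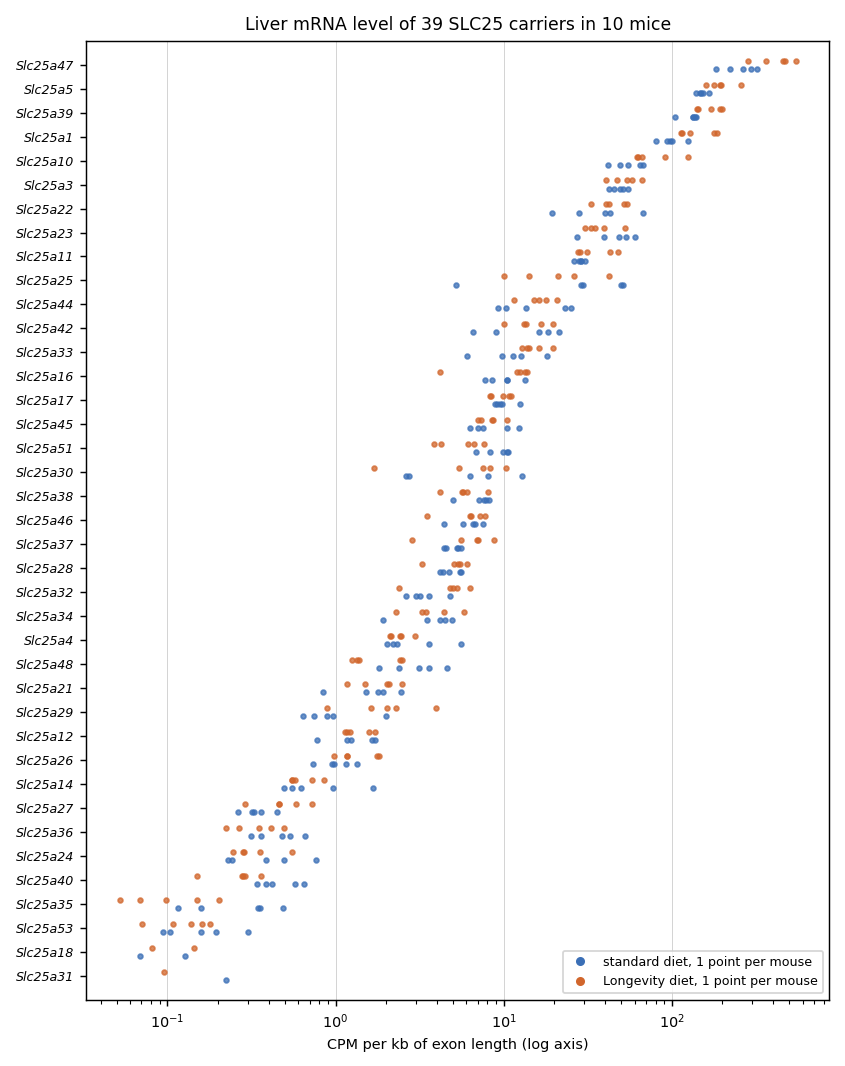
Level per kilobase of exon (CPM per kb, log axis) of 39 carriers in each mouse, coloured by diet and ordered by the mean over the 10 mice; mice at 0 cannot be drawn. Slc25a47 is highest with a mean of 341 CPM per kb, and Slc25a31 is lowest at 0.032.

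The promoters of 6 carriers are shown because the comparisons below turn on them: both members of the pairs Slc25a39 with Slc25a40 and Slc25a4 with Slc25a5, and the neighbours Slc25a47 and Slc25a29. Each window is from RefSeq on GRCm38.p6, runs 5′ to 3′ on the gene's strand and holds 250 bases before and 50 after the RefSeq start. Capitals mark CCAAT and GGGCGG, each searched on both strands, so that ATTGG and CCGCCC are the same motifs read on the other strand.
Slc25a39 (chr11:102407468-102407767, minus strand): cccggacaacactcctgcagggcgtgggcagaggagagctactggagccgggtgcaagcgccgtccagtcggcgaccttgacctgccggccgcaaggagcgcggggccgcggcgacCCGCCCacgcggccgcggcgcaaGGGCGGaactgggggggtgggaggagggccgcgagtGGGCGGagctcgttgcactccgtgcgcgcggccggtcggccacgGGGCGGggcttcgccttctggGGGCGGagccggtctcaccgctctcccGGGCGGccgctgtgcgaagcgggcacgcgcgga
Slc25a40 (chr5:8422588-8422887, plus strand): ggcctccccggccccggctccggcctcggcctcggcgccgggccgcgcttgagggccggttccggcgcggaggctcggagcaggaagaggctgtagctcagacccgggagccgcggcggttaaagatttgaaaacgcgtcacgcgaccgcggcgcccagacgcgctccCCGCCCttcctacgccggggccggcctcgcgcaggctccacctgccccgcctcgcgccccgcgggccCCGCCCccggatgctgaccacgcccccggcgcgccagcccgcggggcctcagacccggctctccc
Slc25a5 (chrX:36795347-36795646, plus strand): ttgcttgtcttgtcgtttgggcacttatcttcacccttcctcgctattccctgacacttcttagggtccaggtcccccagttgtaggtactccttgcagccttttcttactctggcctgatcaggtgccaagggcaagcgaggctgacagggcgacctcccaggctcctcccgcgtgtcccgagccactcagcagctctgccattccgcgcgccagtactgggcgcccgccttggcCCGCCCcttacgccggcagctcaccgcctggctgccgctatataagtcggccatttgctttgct
Slc25a4 (chr8:46211013-46211312, minus strand): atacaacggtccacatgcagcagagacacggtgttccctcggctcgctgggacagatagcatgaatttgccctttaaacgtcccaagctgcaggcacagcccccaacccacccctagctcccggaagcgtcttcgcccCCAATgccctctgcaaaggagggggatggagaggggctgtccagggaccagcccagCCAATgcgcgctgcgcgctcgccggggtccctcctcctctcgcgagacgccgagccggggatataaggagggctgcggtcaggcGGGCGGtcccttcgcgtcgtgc
Slc25a47 (chr12:108850879-108851178, plus strand): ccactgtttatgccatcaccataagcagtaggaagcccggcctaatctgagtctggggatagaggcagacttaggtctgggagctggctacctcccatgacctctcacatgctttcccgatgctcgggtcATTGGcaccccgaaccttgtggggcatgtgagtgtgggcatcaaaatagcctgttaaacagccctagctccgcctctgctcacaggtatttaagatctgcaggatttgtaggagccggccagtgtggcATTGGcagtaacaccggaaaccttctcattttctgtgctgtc
Slc25a29 (chr12:108835827-108836126, minus strand): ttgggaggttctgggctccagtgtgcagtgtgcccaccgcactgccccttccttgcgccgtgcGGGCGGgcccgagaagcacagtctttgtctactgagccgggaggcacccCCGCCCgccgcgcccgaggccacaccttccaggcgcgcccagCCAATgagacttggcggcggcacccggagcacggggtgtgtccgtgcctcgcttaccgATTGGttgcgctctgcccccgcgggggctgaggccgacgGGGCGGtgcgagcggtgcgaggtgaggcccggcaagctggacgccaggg
The Slc25a39 window holds 6 GGGCGG matches and the Slc25a40 window 2, with a GC content of 77.3% and 79.0%. The Slc25a47 window holds 0 GGGCGG and 2 CCAAT matches, with a GC content of 53.3%. Promoter windows were counted for 31 of the carriers, 40 windows in all, and the other carriers were left out of this count. GGGCGG was in 34 of these 40 windows and CCAAT in 21, or 52.5%. Over all 32851 promoter windows of that length the shares were 35.7% and 37.4%. The carriers' windows also had a higher median GC content, 59.0% against 52.7%, which bears on any GC-rich motif. The letters CACGTG were in 6 of the 40 windows and in 7.15% of all windows, TGACGTCA in 2 and 1.79%, TCACNCCAC in 1 and 1.24%, and TATAAA in 2 and 13.6%. The NRF1 element was in 2 and in 4.60% of all windows. The letters TGATGNAA and TCAAGGTCA and the PPAR DR1 element were in 0 of the 40, and in 3.97%, 0.423% and 0.0396% of all windows. All were searched on both strands, and no 2 marked matches in the windows shown overlap. A match is a description of the letters and not a binding site.

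The carriers of nucleotides and phosphate were led by Slc25a5, Slc25a3, Slc25a23 and Slc25a25 in mean CPM over the 10 mice. Slc25a5 and Slc25a4 are adenine nucleotide carriers, which take ADP into the matrix in exchange for ATP, Slc25a4 being known from heart and muscle and Slc25a5 from dividing and many other cells. Slc25a5 (X:36059304-36062460, plus strand, mm39) was at 241, 275, 252, 229 and 247 CPM on SD and at 322, 423, 263, 319 and 292 CPM on LD. 4 LD mice lay above the highest SD mouse, and LD_442 lay within the SD range. The means were 249 ± 16.8 and 324 ± 60.5 CPM (SD, n = 5 each), a log2 difference of 0.36 (SE 0.16, limma unadjusted p = 0.0417, adjusted p = 0.264). Slc25a4 (8:46659834-46664321, minus strand) was at 5.19, 8.46, 13.1, 4.78 and 5.47 CPM on SD and at 5.66, 6.95, 4.99, 5.01 and 5.73 CPM on LD. The values of Slc25a4 overlapped, with SD_501 and SD_500 highest (log2 difference -0.28, SE 0.29, limma adjusted p = 0.646).

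Slc25a3 brings phosphate into the matrix for ATP synthesis. It was at 269.8 ± 26.9 CPM on SD and 296 ± 55.4 CPM on LD (n = 5 each), a log2 difference of 0.12 (95% interval -0.24 to 0.49, limma adjusted p = 0.742). Slc25a23, Slc25a24 and Slc25a25 exchange ATP-Mg for phosphate under the control of calcium. Slc25a25 varied most among mice of 1 diet in this group, at 401, 228, 231, 390.2 and 41.1 CPM on SD and at 111, 79.2, 332, 166 and 206 CPM on LD. The highest mouse exceeded the lowest by 9.78-fold on SD and 4.19-fold on LD, so its interval for the log2 difference ran from -1.60 to 0.90. Slc25a33 and Slc25a36 carry pyrimidine nucleotides, and their log2 differences were 0.47 and -0.43 (limma adjusted p = 0.370 and 0.481). Slc25a23, Slc25a24 and the peroxisomal Slc25a17 had log2 differences of -0.24, -0.20 and -0.04. Of the 9 group members tested, 3 had a difference above 0, and the median was -0.20.

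The carriers of di- and tricarboxylates and amino acids had 8 of 10 tested members with a difference above 0 and a median log2 difference of 0.21. Slc25a1 exports citrate to the cytosol, where it is the carbon source for fatty acid and cholesterol synthesis. Slc25a1 (16:17743087-17746083, minus strand) was at 269, 210.0, 174, 203 and 216 CPM on SD and at 402, 383, 250.1, 276 and 245 CPM on LD. 3 LD mice lay above the highest SD mouse. The means were 214 ± 34.6 and 311 ± 75.5 CPM, a log2 difference of 0.52 (SE 0.19, 95% interval 0.10 to 0.94, limma unadjusted p = 0.0183, adjusted p = 0.181).

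Slc25a10 exchanges malate or succinate for phosphate. It (11:120382666-120390013, plus strand) was at 189.9, 223, 169, 234 and 144 CPM on SD and at 430.3, 313, 231, 218 and 215 CPM on LD. Only LD_405 and LD_406 exceeded the highest SD mouse, and the log2 difference was 0.52 (SE 0.22, limma unadjusted p = 0.0359, adjusted p = 0.246). Slc25a11, the oxoglutarate-malate carrier of the malate-aspartate shuttle, was at 60.3 ± 3.08 CPM on SD and 75.8 ± 19.6 CPM on LD (n = 5 each, log2 difference 0.29, limma adjusted p = 0.436). Its gene overlaps Rnf167 on the other strand, and whether the libraries keep strand is not stated. In all, 9 carriers overlap a protein-coding gene in this way. Among them is Slc25a26 with Lrig1, which was at 20.1 CPM on SD and 15.7 CPM on LD. Slc25a12, an aspartate-glutamate carrier of the same shuttle known from muscle and brain, was at 9.62 ± 2.80 and 10.0 ± 1.95 CPM. Slc25a22 imports glutamate and was at 237 ± 109.9 CPM on SD and 266 ± 51.6 CPM on LD (log2 difference 0.27, limma adjusted p = 0.664). Its relative Slc25a18 was listed at 0 in 6 mice and reached 0.275 CPM, where 3 reads of a library are worth up to 0.121 CPM.

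Slc25a29 transports basic amino acids. Slc25a29 (12:108791799-108801809, minus strand) was at 1.93, 1.67, 2.53, 5.21 and 2.30 CPM on SD and at 10.4, 5.98, 5.30, 4.23 and 2.31 CPM on LD. The diets overlapped through SD_502, LD_513 and LD_515, and the log2 difference was 0.98 (SE 0.40, limma unadjusted p = 0.0295, adjusted p = 0.227). Slc25a48, which has been linked to choline import, was at 6.13, 10.5, 15.6, 12.1 and 8.06 CPM on SD and at 4.25, 8.33, 8.13, 4.63 and 4.54 CPM on LD. 3 LD mice lay below the lowest SD mouse, with a log2 difference of -0.79 (SE 0.30, limma unadjusted p = 0.0199, adjusted p = 0.189). Slc25a38, which imports glycine for haem synthesis, and Slc25a44, a carrier of branched-chain amino acids, had log2 differences of -0.28 and 0.09. That of Slc25a21, which carries oxodicarboxylates of lysine and tryptophan breakdown, was 0.15.

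**Figure D3:**
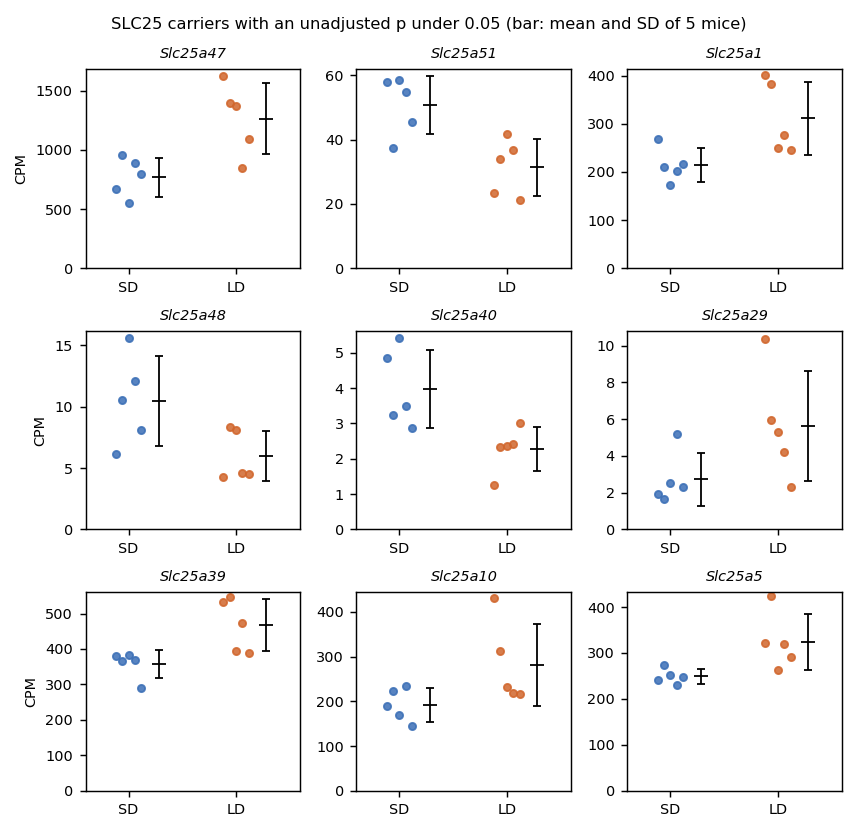
CPM of each mouse (points) with the mean and SD of 5 mice (bars) on SD and LD for the 9 carriers with an unadjusted limma p under 0.05; the vertical axes start at 0 and differ between panels. Slc25a39 is the only one of the 9 whose diets do not overlap.

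Among the cofactor, metal and glutathione carriers, Slc25a51 imports NAD into the matrix. Slc25a51 (4:45395923-45408766, minus strand) was at 58.0, 37.5, 58.4, 54.8 and 45.4 CPM on SD and at 23.4, 34.0, 41.8, 36.6 and 21.2 CPM on LD. 4 LD mice lay below the lowest SD mouse, and LD_442 lay within the SD range. The means were 50.8 ± 9.11 and 31.4 ± 8.81 CPM, a log2 difference of -0.72 (SE 0.22, 95% interval -1.20 to -0.24, limma unadjusted p = 0.00657, adjusted p = 0.121).

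Slc25a39 takes glutathione into the matrix, and Slc25a40 is its close relative. Slc25a39 (11:102293811-102298772, minus strand) was at 379.8, 366, 382, 368 and 288 CPM on SD and at 533, 548, 396, 474 and 387 CPM on LD. All 5 LD mice lay above all 5 SD mice, and it was the only carrier of 37 (2.70%) whose diets did not overlap. Over all genes tested 5.5% did not overlap, 2.01% with LD above and 3.49% with LD below. The log2 difference was 0.38 (SE 0.16, limma unadjusted p = 0.0356, adjusted p = 0.245). Slc25a40 (5:8472850-8504797, plus strand) was at 4.84, 3.24, 5.41, 3.50 and 2.87 CPM on SD and at 1.25, 2.34, 2.36, 2.43 and 3.00 CPM on LD. 4 LD mice lay below the lowest SD mouse (log2 difference -0.79, SE 0.30, limma unadjusted p = 0.0221, adjusted p = 0.199).

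Slc25a32, linked to the transport of folate and FAD, was at 22.0, 19.4, 18.3, 29.1 and 15.9 CPM on SD and at 14.4, 29.2, 38.3, 32.2 and 30.4 CPM on LD. 4 LD mice lay above all SD mice and LD_405 below them, with a log2 difference of 0.42 (limma adjusted p = 0.422). With weights per library the log2 difference was 0.67 (limma adjusted p = 0.0366), and with length and GC slopes removed it was 0.75 (limma adjusted p = 0.0142). Among the carriers taken by the rule, Slc25a32 was the only one to pass the threshold in any of the 24 alternatives. Slc25a26 brings S-adenosylmethionine, the methyl donor made from methionine, into the matrix, and was at 4.96 ± 1.10 CPM on SD and 6.62 ± 1.82 CPM on LD (n = 5 each, log2 difference 0.40, 95% interval -0.16 to 0.95, limma adjusted p = 0.446). Slc25a42 and Slc25a16 are tied to coenzyme A, and their log2 differences were 0.13 and 0.05. LD_405 stood apart in Slc25a16, at 20.0 CPM against 57.6 to 66.0 in the other LD mice. Slc25a37 and Slc25a28, the iron carriers known as mitoferrins, were at 30.2 ± 3.18 and 18.3 ± 2.43 CPM on SD and at 37.4 ± 13.3 and 18.9 ± 3.99 CPM on LD.

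Slc25a47 (ENSMUSG00000048856.10, 12:108801972-108822741, plus strand) was at 666, 955, 549, 888 and 793 CPM on SD and at 1627, 1398, 1368, 845 and 1089 CPM on LD. 4 LD mice lay above the highest SD mouse, and LD_513 lay within the SD range. The means were 770.3 ± 165 and 1265 ± 303 CPM, a log2 difference of 0.71 (SE 0.21, 95% interval 0.25 to 1.17, limma unadjusted p = 0.00521, adjusted p = 0.110). Slc25a47 made up 22.8% ± 4.33 of the carriers' summed CPM on SD and 29.8% ± 5.22 on LD (n = 5 each). The summed CPM of the carriers was 3396 ± 542 on SD and 4216 ± 396 on LD, and without Slc25a47 it was 2626 ± 468 and 2951 ± 226. Slc25a47 and Slc25a29 lie next to each other on chromosome 12 on opposite strands, with starts 163 bases apart in the deposited table. Their RefSeq starts lie 15.3 kb apart on GRCm38.p6, so the windows shown for this pair are not both at the starts that the table gives. The summed CPM of the hepatocyte markers, carried by Alb, was also higher on LD, but their median log2 difference was 0.12, and their part in the value of Slc25a47 was not tested.

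The remaining carriers without a settled substrate and the relatives of the uncoupling proteins did not reach an unadjusted p under 0.05. Slc25a46 of the outer membrane, Slc25a45 and Slc25a34 had log2 differences of -0.02, -0.02 and 0.02, and Slc25a53 of -0.29. Slc25a30, a relative of the uncoupling proteins, ranged 4.92-fold among SD mice and 6.12-fold among LD mice, with a log2 difference of 0.07. Slc25a27 was at 1.35 ± 0.266 CPM on SD and 1.97 ± 0.632 CPM on LD (log2 difference 0.48, limma adjusted p = 0.482), and Slc25a14 had a log2 difference of -0.26. The untested Slc25a35 ranged from 0.426 to 1.78 CPM on SD and from 0.192 to 0.742 CPM on LD. The untested Slc25a31, an adenine nucleotide carrier known from testis, was listed at 0 in 8 mice.

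The balance within carrier pairs of like substrate was compared as the log2 ratio of their levels per kb in each mouse, which does not depend on how libraries are scaled. Of 8 listed pairs 7 were computed, since Slc25a18 was under 1 CPM, and p-values of the two-sided exact permutation test over 252 assignments were adjusted over the 7. The smallest p this test can give is 0.00794. The log2 ratio of Slc25a39 to Slc25a40 was 7.87, 8.38, 7.72, 8.28 and 8.21 on SD and 10.22, 9.41, 8.94, 9.16 and 8.57 on LD. Every LD mouse lay above every SD mouse, and the mean ratio differed by 1.17 on the log2 scale (exact permutation p = 0.00794, adjusted p = 0.0278). The log2 ratio of Slc25a4 to Slc25a5 was -6.03, -5.52, -4.77, -6.07 and -5.99 on SD and -6.32, -6.42, -6.21, -6.48 and -6.16 on LD. Every LD mouse lay below every SD mouse, with a difference of -0.64 (exact permutation p = 0.00794, adjusted p = 0.0278). As a ratio per kb this was 0.0196 on SD and 0.0125 on LD, so Slc25a5 made up nearly all of this pair on both diets.

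With any 1 mouse left out the Slc25a39 to Slc25a40 difference was 0.93 to 1.34. The Slc25a4 to Slc25a5 difference was -0.42 without SD_501, which had the highest ratio, and -0.74 to -0.60 when another mouse was left out. Leaving out any 1 mouse other than SD_646 ended both calls, with adjusted exact permutation p from 0.0556 to 0.0926. Diets that do not overlap cannot come to overlap when a mouse is left out, so their staying apart adds nothing. Fewer mice also give fewer assignments and coarser p-values. Without SD_646 both calls held, at adjusted exact permutation p = 0.0278 for Slc25a4 to Slc25a5 and 0.0370 for Slc25a39 to Slc25a40. The part of the smaller number of mice in the lost calls was not tested. The lost calls alone do not tell whether the differences rest on single mice. With length and GC slopes removed the Slc25a39 to Slc25a40 difference was 0.73 (adjusted exact permutation p = 0.0556). The longest annotated transcript of Slc25a39 has a GC content of 59.7% and that of Slc25a40 of 39.4%. The ratio of Slc25a33 to Slc25a36 was higher on LD by 0.90 on the log2 scale (exact permutation p = 0.0317, adjusted p = 0.0741), with SD_646 at 5.62 inside the LD range. The pairs Slc25a10 with Slc25a11, Slc25a28 with Slc25a37, Slc25a25 with Slc25a23 and Slc25a42 with Slc25a16 differed by 0.23, -0.20, -0.11 and 0.08, with adjusted exact permutation p from 0.181 to 0.881.

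**Figure D4:**
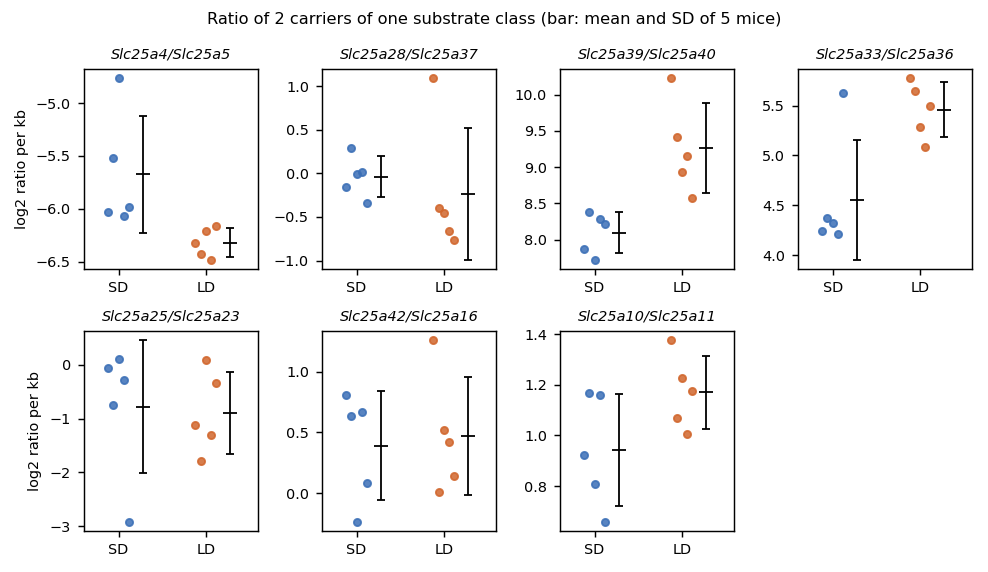
Log2 ratio of the levels per kb of 2 carriers of like substrate in each mouse (points, vertical axis) on SD and LD, for the 7 pairs computed. The ratio of Slc25a39 to Slc25a40 is higher in every LD mouse and that of Slc25a4 to Slc25a5 is lower.

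Family genes outside the rule, and the enzymes that work with the carriers, were taken from the same fit. Of 8 listed family genes 6 were tested, of which 1 rose and 1 fell, against 0.661% and 1.23% of all genes. Ucp2, an uncoupling protein of this family that exports C4 metabolites, was at 76.1, 54.9, 50.0, 47.2 and 43.6 CPM on SD and at 162, 82.3, 98.3, 110.4 and 117 CPM on LD. It rose by 1.06 on the log2 scale (SE 0.21, limma adjusted p = 0.0262), with no overlap. The call was lost without SD_500, SD_501, SD_646 or LD_515, where the log2 difference was 0.99 to 1.07. The ornithine carrier Slc25a15 fell by 1.01 (limma adjusted p = 0.0141), from 260.5 ± 52.7 to 128 ± 18.6 CPM, and did not pass without LD_406 and LD_515 (limma adjusted p = 0.143). The carnitine-acylcarnitine carrier Slc25a20, at 82.6 ± 13.3 and 126 ± 17.9 CPM, and the aspartate-glutamate carrier Slc25a13, at 131 ± 27.5 and 152 ± 48.5 CPM, did not pass (limma adjusted p = 0.0904 and 0.778). In Slc25a20 every LD mouse lay above every SD mouse. It passed with library weights (limma adjusted p = 0.0319) and with length and GC slopes removed (limma adjusted p = 0.0238).

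Of 18 enzymes that make or use the substrates of the malate-aspartate, glycerol phosphate and citrate routes, 1 rose and 1 fell, against 0.661% and 1.23% of all genes, with a median log2 difference of 0.24 against -0.11. Gpd1, the cytosolic enzyme of the glycerol phosphate shuttle, was at 192, 257, 137, 199 and 95.03 CPM on SD and at 310.0, 436, 454, 403.4 and 379 CPM on LD, with no overlap. It rose by 1.24 (SE 0.24, limma adjusted p = 0.0238). Got1, the cytosolic aspartate aminotransferase of the malate-aspartate shuttle, was at 339, 176, 237, 254 and 192 CPM on SD and at 104, 169, 86.1, 91.2 and 111 CPM on LD, with no overlap. It fell by 1.10 (SE 0.23, limma adjusted p = 0.0290). Leaving out SD_403, SD_501 or LD_515 ended either call, as did LD_406 for Gpd1 and LD_442 or LD_513 for Got1. Without those mice the log2 difference was 1.17 to 1.29 for Gpd1 and -1.10 to -0.96 for Got1. The mitochondrial partners Got2 and Mdh2, at 404.6 ± 41.2 and 134 ± 6.91 CPM on SD and 482 ± 36.8 and 224 ± 57.8 CPM on LD, did not pass (limma adjusted p = 0.383 and 0.0722).

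**Figure D5:**
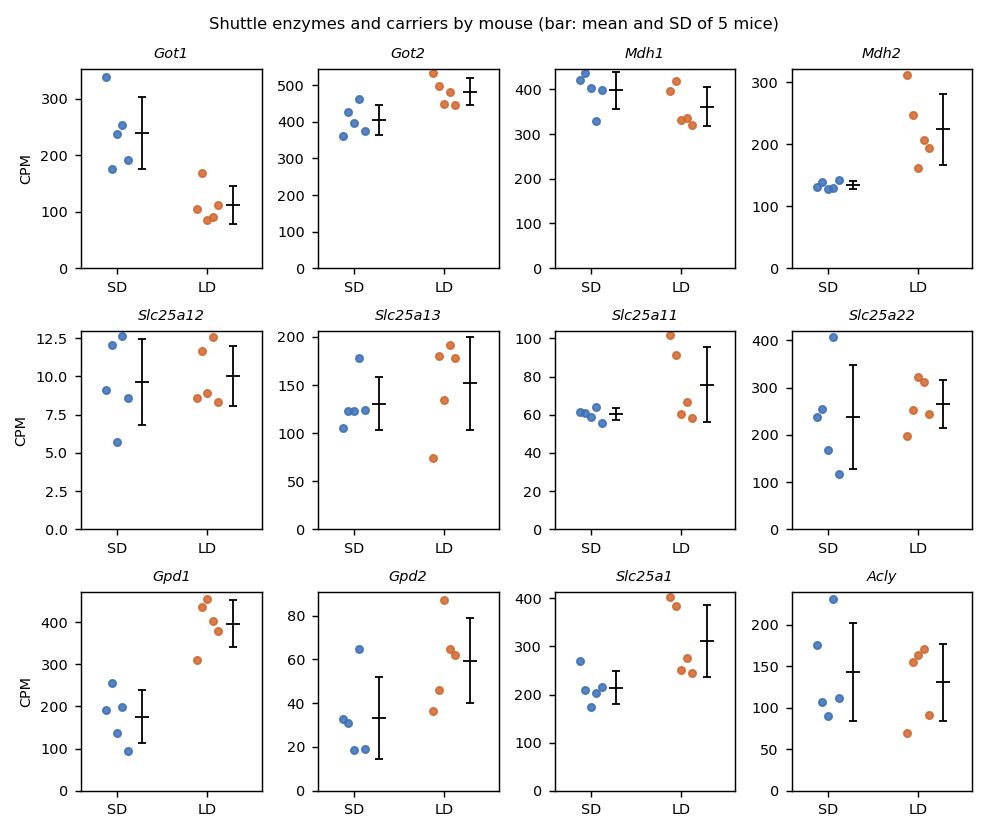
CPM of each mouse (points) with the mean and SD of 5 mice (bars) on SD and LD for carriers and enzymes of the shuttles and of citrate export. Gpd1 is higher and Got1 lower in every LD mouse, while the carriers Slc25a11 and Slc25a12 overlap between the diets.

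The carriers reach the inner membrane through the TOM complex, the small TIM chaperones and the TIM22 complex. Of 16 such import genes 0 rose and 0 fell by limma, against 1.89% of all genes in either direction. At an unadjusted p under 0.05 there were 2, both higher on LD, where the share over all genes was 5.92%, or 17.5% in either direction. Timm9, at 12.2 ± 2.12 CPM on SD and 21.1 ± 5.31 CPM on LD, had the smallest limma adjusted p, 0.0937. Tomm40 was at 34.2 ± 2.11 and 57.0 ± 20.7 CPM (limma adjusted p = 0.143). The median log2 difference of the import genes was 0.22 against -0.11 over all genes. Of 25 tested genes of other mitochondrial membrane transporters, among them the pyruvate carrier, the calcium uniporter and the voltage-dependent anion channels, 0 rose and 0 fell by limma, with 3 at an unadjusted p under 0.05 and a median of 0.05. Of 20 tested genes that track mitochondrial mass, 0 rose and 0 fell by limma, with 1 at an unadjusted p under 0.05 and a median of 0.11. Of the 3 transporters 1 was higher and 2 were lower on LD, and the 1 mass gene was higher. For these 2 lists the shares at an unadjusted p lay under the 17.5% of all genes in either direction.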

How the data were processed

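Liver RNA of 10 mice was profiled. The deposited table holds CPM per gene, to which the authors added 0.0001, as its values show; this was subtracted. STAR, Partek and mm39 are named per the submitters' processing notes without versions; the quantifier, annotation and filter are not given in the sources used here. Coordinates are the table's, with the end 1 below its printed stop, an offset shown by all 15 mitochondrial genes compared with GENCODE M21, which otherwise gave only exon length and GC content. Depth (24.7 to 45.7 M reads; M, 1e+06) was estimated from the step between low values, and 3 reads served as a floor, covering counting error only. Genes averaging 1 CPM or more, 13157 in number, were compared on log2(CPM + 0.1) with limma 3.58.1 (trend, robust, statmod 1.5.0, R 4.3.3), two-sided, with Benjamini-Hochberg adjustment at 0.05 over all of them. On this scale changes of low genes are understated. The p-values measure the spread between these mice. The fit was tested on simulated data of this layout, in 3 simulations with 200 changed genes among 12970 to 12981 tested: 44.0% of rises of 2-fold and 86.7% of rises of 4-fold were recovered, and 70.0% of falls of 4-fold, with 5.12% false calls. The values of 1 carrier are not reported here. Members and lists were chosen with earlier results of these data known. Named were carriers that passed or did not overlap, the highest of each role group, both members of each pair, other carriers briefly, up to 4 genes with the smallest p of other lists, and Slc25a13, Slc25a15 and Slc25a20; carriers with an unadjusted p under 0.05, and Slc25a26 and Slc25a32, were given in more detail after their values were seen. Alternatives were other pseudocounts, filters and scalings, no trend, library weights, the leading digit of the mouse number, and leaving out mice.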

Additional observations from a re-analysis of the deposited data

Results flagged for a closer look

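In 8 of 92 groups of 5 mice examined, 1 mouse lay further from the others than a Dixon limit that chance passes in about 1 in 20 groups. Slc25a39 was at 288 CPM in SD_646 and at 366 to 382 in the other SD mice. Slc25a16 was at 20.0 CPM in LD_405 and at 57.6 to 66.0 in the other LD mice. Slc25a17, a peroxisomal carrier, was at 35.6 CPM in SD_403 and at 25.4 to 27.7 in the other SD mice. Slc25a29 was at 5.21 CPM in SD_502 and at 1.67 to 2.53 in the other SD mice. The log2 ratio per kb of Slc25a28 to Slc25a37 was 1.09 in LD_405 and -0.76 to -0.40 in the other LD mice. The log2 ratio of Slc25a33 to Slc25a36 was 5.62 in SD_646 and 4.22 to 4.37 in the other SD mice, and that of Slc25a25 to Slc25a23 was -2.92 in SD_646 and -0.74 to 0.10 in the others. Mitochondrial-encoded genes took 5.12% of reads in SD_502 and 10.5% to 11.4% in the other SD mice.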

How the results depend on the processing

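No paired analysis was possible because no mouse number occurs on both diets. Of all genes, 87 rose and 162 fell; rises numbered 151 under median-of-ratios and 151 under quantile scaling, 329 with library weights, 28 with the leading digit of the mouse number as covariate, 2 without LD_406 and LD_515 and 365 with length and GC slopes removed, and falls 476 with library weights, 70 with the leading digit and 15 without LD_406 and LD_515. Leaving out 1 mouse gave 26 (without LD_406) to 152 (without LD_405) rises and 57 (without SD_403) to 228 falls. Voom weights and slope removal were chosen after seeing the data. Carriers that rose numbered 1 with library weights and 1 with slopes removed, and 0 to 0 when 1 mouse was left out; their median was 0.30 with slopes removed and -0.04 to 0.18 with 1 mouse left out. Signs turned for Slc25a16 (-0.15 without LD_406 and LD_515, -0.050 to 0.38 with 1 mouse left out), Slc25a28 (-0.083 with library weights, -0.091 with the leading digit, -0.046 to 0.18), Slc25a30 (-0.080 with the leading digit, -0.043 without the pair of mice, -0.19 to 0.50), Slc25a42 (-0.042 with the leading digit, -0.11 to 0.31) and Slc25a13 (-0.052 without the pair of mice). Quantile scaling turned the sign of 6 other carriers, among them Slc25a14, Slc25a24 and Slc25a53. Slope removal turned that of 7, among them Slc25a24, Slc25a34 and Slc25a53. Without LD_406 and LD_515 the pair differences were -0.66 for Slc25a4/Slc25a5 (adjusted exact permutation p = 0.281), 1.35 for Slc25a39/Slc25a40 (adjusted exact permutation p = 0.125), 0.034 for Slc25a28/Slc25a37 and 0.0041 for Slc25a25/Slc25a23. With those mice left out the permutation test has fewer assignments and coarser p-values. With slopes removed they were -0.67 for Slc25a4/Slc25a5, 0.73 for Slc25a39/Slc25a40, 0.048 for Slc25a25/Slc25a23 and -0.12 for Slc25a42/Slc25a16. With 1 mouse left out they ran from -0.74 to -0.42 for Slc25a4/Slc25a5, 0.93 to 1.34 for Slc25a39/Slc25a40, -0.64 to 0.11 for Slc25a25/Slc25a23, -0.12 to 0.19 for Slc25a42/Slc25a16 and 0.82 to 1.17 for Slc25a33/Slc25a36, whose difference passed without SD_646. Family genes outside the rule rose in number 2 with library weights, 0 with the leading digit, 0 without the pair of mice and 2 with slopes removed (0 to 1 with 1 mouse left out), and fell in number 0 with the leading digit and 0 without the pair. Shuttle enzymes rose in number 3 with library weights, 0 with the leading digit, 0 without the pair and 3 with slopes removed (0 to 2), and fell in number 0 without trend and robust fitting and 0 without the pair (0 to 1). Mitochondrial mass genes rose in number 1 with library weights and 1 with slopes removed. Where a value changed, the cause was not tested. Carriers of a few CPM rest on fewer reads in the LD libraries, which were shallower.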

Other observations

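LD_405 had the lowest value of the 10 mice in 11 of the 37 carriers tested and the highest in 7, while LD_406, LD_442 and LD_513 were lowest in 0. SD_646 was lowest in 8 carriers and highest in 1, and SD_501 was lowest in 7 and highest in 7.

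Cyp39a1, an oxysterol hydroxylase of bile acid synthesis, has its start 211 bases from that of Slc25a27 on the opposite strand, and is named for this position after its values were seen. It was at 16.99 ± 6.72 CPM on SD and 85.8 ± 34.7 CPM on LD (n = 5 each) and rose by 2.29 on the log2 scale (limma adjusted p = 0.00605). Without LD_406 and LD_515 the log2 difference was 2.20 (limma adjusted p = 0.106). Slc25a27 itself had a log2 difference of 0.48 (limma adjusted p = 0.482).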
